A study of Mus musculus with 12 samples.

Results

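The genes described are 38 nuclear genes of the mouse that encode subunits of respiratory complexes II to V and the electron carrier cytochrome c. They were taken by gene symbol from a table of 28977 gene IDs, with 4 genes of complex II, 9 of complex III, 1 for cytochrome c, 10 of complex IV and 14 of complex V. All 38 had a row in the table, and all 38 passed the filter on low values, which asked for 3 or more libraries at 1 FPKM or above. FPKM is the number of fragments or reads on a gene, scaled to the length of its exons in kilobases and to the depth of the library. ATP synthase genes are given by their older symbols, so Atp5a1, Atp5b, Atp5g1 and Atp5e appear as Atp5f1a, Atp5f1b, Atp5mc1 and Atp5f1e in newer annotation.

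The cells were J774A.1, a macrophage-like mouse cell line, and no group carried a genetic change. Hypochlorous acid (HOCl) is an oxidant formed from chloride and hydrogen peroxide by myeloperoxidase, an enzyme of neutrophils and some macrophages. Each of the 4 groups had 3 mRNA libraries: cells kept in cell media, cells in HBSS, a buffered salt solution, without HOCl (0 µM, the vehicle control), and cells exposed to HOCl at 20 µM or at 100 µM in HBSS. The exposure lasted 1 h, and all cells then spent 24 h in full cell media before collection. Nothing in the labels says that replicates were separate cultures, so the p-values reflect no more than the scatter of these libraries, which may be technical.

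Complex II is succinate dehydrogenase, which feeds electrons from the citric acid cycle to ubiquinone. Complex III passes them to cytochrome c, and complex IV passes them from cytochrome c to oxygen. Complex V makes ATP from the proton gradient that complexes III and IV help to build. Complexes III, IV and V combine nuclear subunits with a few subunits encoded by mitochondrial DNA, while complex II is encoded in the nucleus alone. In macrophages, activation by bacterial products is known to shift ATP production toward glycolysis and to turn succinate oxidation at complex II toward oxidant production.

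Library depth, recovered from the FPKM values, ran from 17683937 to 21408518 reads, and every value of these 38 genes rested on between 440 and 34689 reads. All 10 macrophage markers looked for stood at 1 FPKM or more in every library, and none of the 8 measured markers of other cells reached 1 FPKM in any. The other 10 libraries lay together, while cell media replicates 1 and 2 lay far from them, in these 38 genes as well. Because all groups shared 1 estimate of spread, the distance between these 2 libraries and cell media replicate 3 widened the errors of every comparison. The median standard error of the difference between HOCl 100 µM and HBSS over the 38 genes was 0.21 on the log2 scale with 12 libraries and 0.067 with the 10. Tests are therefore given on 12 libraries, and their counts also on 10. All differences are on the scale of log2(FPKM + 1), and in these mRNA data from whole cultures fewer cells of a type and less RNA per cell cannot be told apart.

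The subunit mRNAs were abundant. Their mean levels in HBSS lay between 13.1 FPKM for Atp5g1 and 305 FPKM for Cox8a, and each gene stood at or above percentile 66.2 of the 12026 genes kept. The 4 highest by FPKM were Cox8a at 305 ± 18.0, Atp5b at 301 ± 7.20, Cox6b1 at 261 ± 17.1 and Cox4i1 at 248 ± 11.7 (mean ± SD, n = 3). Cox8a and Atp5b, and likewise Cox6b1 and Cox4i1, differed by less than the spread between replicates, so no order within either pair is given. The 38 genes together made up 1.23 ± 0.04% of the FPKM in HBSS (SD, n = 3), 1.23 ± 0.04% at 20 µM and 1.34 ± 0.04% at 100 µM. In cell media they made up 1.77%, 1.86% and 1.19%, with replicates 1 and 2 high and replicate 3 next to the HBSS libraries.

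The order of levels depended on which exons count toward a gene's length. The deposited values lay on whole reads when multiplied by library depth and by the length of the union of all annotated exons. For these genes that union was 1.00 to 11.8 times the length of the principal mRNA. Per kilobase of principal mRNA, Atp5b stood highest at 665, followed by Cox4i1 at 516, Atp5g3 at 356 and only then Cox8a at 344. The largest moves were those of Cox6c, from rank 31 to rank 6, and Atp5l, from rank 37 to rank 15. Uqcrq moved from rank 20 to rank 5. Sdhc, whose principal mRNA of 3171 bases was the longest of the 38, moved from rank 29 to rank 38. Cox6c, Atp5l, Uqcrq, Sdhc and Cox6b1 are outside the set of genes fixed for naming and were singled out after their values were seen. Comparisons of one gene across groups do not depend on this length.

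**Figure D1:**
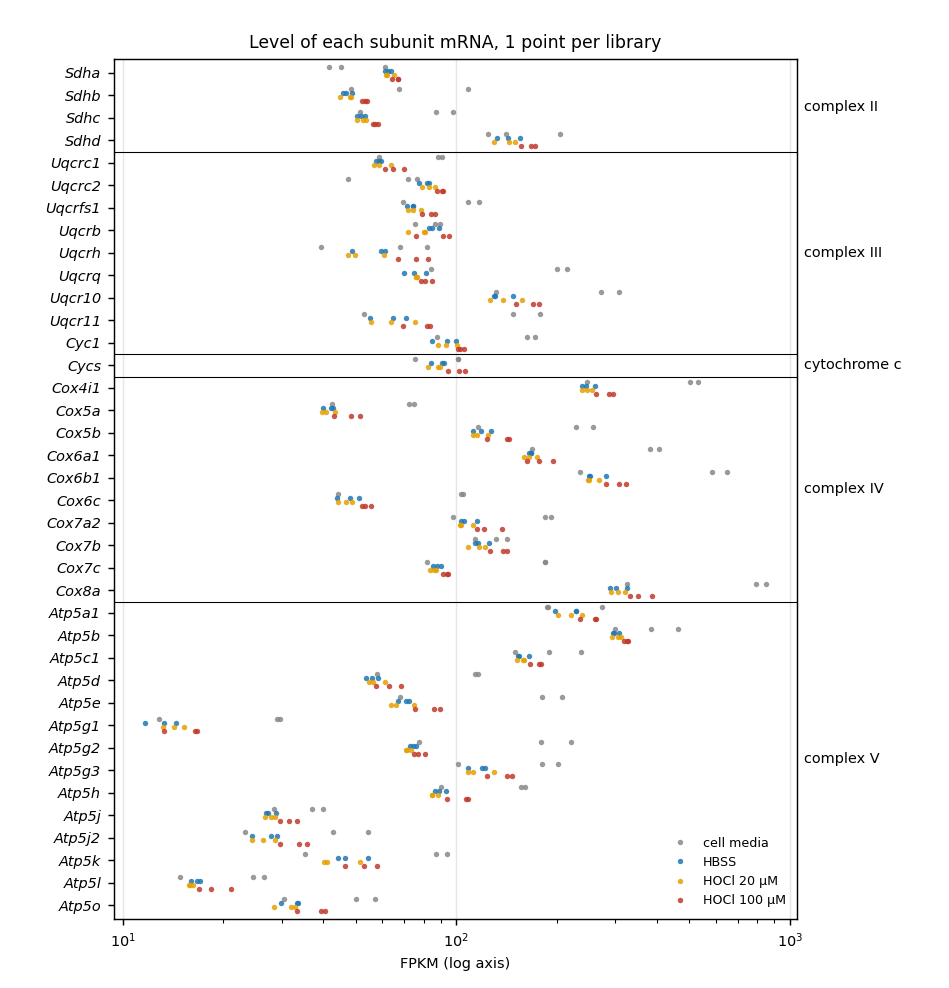
FPKM (log axis) of the 38 subunit mRNAs in each of the 12 libraries, 1 point per library, grouped by complex and coloured by group. The points of HOCl 100 µM lie to the right of HBSS without overlap for 27 of the 38 genes, against 16.5% of all genes kept. For most genes 2 of the 3 cell media points lie far to the right of all others, such as 850 and 794 FPKM against 289 to 386 for Cox8a.

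Promoters are shown because binding motifs of nuclear respiratory factor 1 (NRF1) and of the ETS family factor GABP (also called NRF2) are known from promoters of respiratory genes. RefSeq promoters (GRCm38.p6, 250 bases before to 50 after the start) were matched for 30 of the 38 genes. The 8 without a match were Sdhc, Uqcrc2, Uqcrb, Uqcrq, Cyc1, Cox4i1, Cox6c and Atp5a1. The ETS motif CCGGAAG was searched on both strands, and so was that of NRF1, whose letters are GCGC, then A and any base, then GCGC again. A match to the first is never a match to the second, although neighbouring matches could share an end base. Below are the promoters of 5 genes from 120 bases before to 30 after the start, 5′ to 3′ on the strand of the gene, with motif matches in capitals. They are Uqcrh (chr4:116075041-116075190, minus strand), which had the largest difference between 100 µM and HBSS, Cox8a (chr19:7217587-7217736, minus), which had the largest of complex IV, and Uqcrc1 (chr9:108936528-108936677, plus), a core subunit. Atp5k (chr5:108434370-108434519, minus) holds both motifs, and Atp5g2 (chr15:102671018-102671167, minus) had the smallest difference of complex V.
Uqcrh: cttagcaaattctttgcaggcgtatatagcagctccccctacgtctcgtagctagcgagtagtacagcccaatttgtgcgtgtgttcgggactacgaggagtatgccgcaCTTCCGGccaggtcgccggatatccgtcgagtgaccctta
Cox8a: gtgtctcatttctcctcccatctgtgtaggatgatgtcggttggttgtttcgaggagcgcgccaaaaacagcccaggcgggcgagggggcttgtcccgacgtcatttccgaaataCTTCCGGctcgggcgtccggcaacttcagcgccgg
Uqcrc1: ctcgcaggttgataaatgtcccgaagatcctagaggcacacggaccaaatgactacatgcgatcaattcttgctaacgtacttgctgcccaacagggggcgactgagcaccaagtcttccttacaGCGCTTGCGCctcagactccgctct
Atp5k: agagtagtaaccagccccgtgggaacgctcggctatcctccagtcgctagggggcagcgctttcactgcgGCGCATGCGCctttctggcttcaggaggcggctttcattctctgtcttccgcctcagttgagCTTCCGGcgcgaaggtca
Atp5g2: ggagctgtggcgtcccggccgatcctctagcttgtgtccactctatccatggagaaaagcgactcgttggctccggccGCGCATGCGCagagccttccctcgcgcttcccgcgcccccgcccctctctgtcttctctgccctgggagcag
The ETS motif lies on the opposite strand (CTTCCGG) with its first printed base at −10 from the start in Uqcrh and at −5 in Cox8a, and Uqcrc1 shows the NRF1 motif just after the start. Cox8a and Uqcrc1 each have 1 further match of the same motif beyond the printed stretch.

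A gene was counted for a motif if any of its promoters held it. The ETS motif was found for 12 of the 30 genes (40.0%) and the NRF1 motif for 10 (33.3%). At least 1 of the motifs was found for 18 (60.0%), and both for 4. Among the 8161 genes kept that had a promoter, 22.8% had the ETS motif, 13% the NRF1 motif and 32.7% either. Among all 27025 genes with a promoter, whether or not in the FPKM table, the shares were 9.93%, 5.19% and 14%. Of 32 nuclear complex I genes, 12.5% had the ETS motif and 21.9% the NRF1 motif. Median GC content of the promoters, averaged within each gene, was 56.8% for the 30 genes and 61.0% for genes kept. The differences between 100 µM and HBSS had a median of 0.20 for genes with the ETS motif and 0.19 without it, and 0.15 with the NRF1 motif and 0.19 without it. A match to these letters is a description of the window and not a measured binding site.

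In the comparison of HOCl at 100 µM with its vehicle HBSS, which asks how the higher dose left respiratory gene expression a day later, all 38 subunit mRNAs had a higher mean at 100 µM, against 48.5% of all genes kept. The log2 differences were small, from 0.03 for Uqcrb to 0.41 for Uqcrh, with a median of 0.18 against −0.0063 over all genes kept. No gene passed the test: limma called 0 of the 38 at a Benjamini-Hochberg adjusted p under 0.05 (smallest adjusted p = 0.651), where it called 0% of all genes. On 12 libraries 0 of 38 had an unadjusted p under 0.05, against 7.76% of all genes. On 10 libraries limma again called 0 of 38, against 0.241% of all genes, and the smallest adjusted p was 0.0649 for Sdhb. There 30 of 38 had an unadjusted p under 0.05, against 32.2% of all genes. With limma weights per library, which give less weight to libraries that scatter, 18 of 38 were called, against 25.5% of all genes. Calls on 10 libraries also changed when replicate number was added to the model (a replicate block), as given in the last section. The largest 95% confidence interval on 12 libraries ran up to 1.08 and the lowest bound was −0.57. For 27 of 38 genes all 3 libraries at 100 µM lay above all 3 in HBSS, against 16.5% of all genes, and for 0 of 38 all 3 lay below, against 17.6%.

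Across the libraries of HBSS and 100 µM the 38 genes moved largely together, so their count in 1 direction rests on 3 libraries against 3. The median deviation of the 38 genes from their HBSS mean was −0.04, 0.06 and −0.02 in HBSS replicates 1 to 3 and 0.09, 0.23 and 0.23 at 100 µM. The lowest of the 100 µM libraries, replicate 1, was only slightly above the highest HBSS library, replicate 2. At 100 µM, 35, 38 and 38 of the 38 genes stood above their HBSS mean. In HBSS replicate 2 the number was 37, against 6 and 14 in the other two. The size of the difference depended on the scaling. Median-of-ratios scaling left 38 of 38 higher with a median of 0.20, quantile normalization 34 with a median of 0.078, and removal of each library's trend on exon length 33 with a median of 0.11. Under both quantile normalization and the length correction Uqcrb, Cox6a1, Cox7c and Atp5g2 were lower at 100 µM, and Atp5k was lower with the length trend removed. Over all genes kept, shorter genes had larger differences between 100 µM and HBSS (Spearman's rho −0.41 across genes, which are not independent replicates). The 38 genes are short, with a median of 1869.5 bases of exon against 3795, and the part of length in their difference beyond that 1 correction was not tested.

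**Figure D2:**
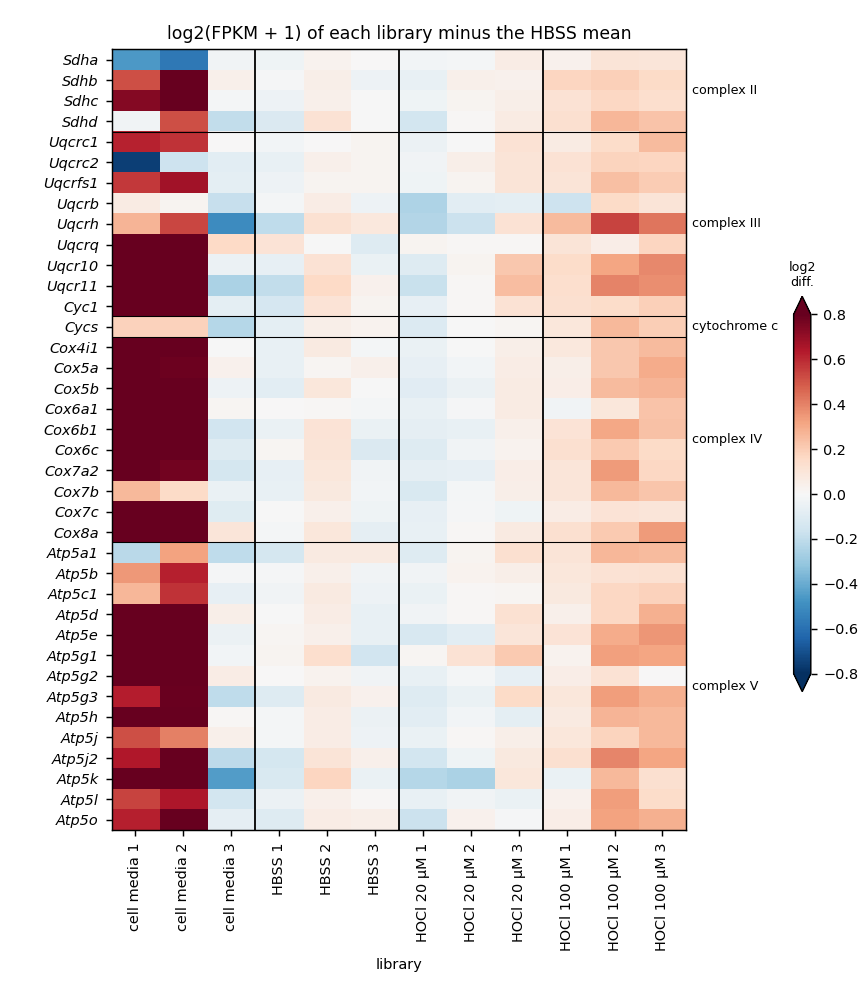
Each cell is log2(FPKM + 1) of 1 gene in 1 library minus that gene's HBSS mean (red higher, blue lower), with genes in rows by complex and libraries in columns by group. The columns of HOCl 100 µM replicates 2 and 3 are red for nearly every gene (38 and 38 of 38 above the HBSS mean), while HBSS replicate 1 and HOCl 20 µM replicate 1 are mostly pale blue (6 and 2 of 38 above it).

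For complex II the differences had a median of 0.16, and all 4 genes had groups that did not overlap. Here and for the complexes below, the share over all genes with every 100 µM library above HBSS was 16.5%. Sdha, the flavoprotein that oxidizes succinate, was at 61.0, 63.9 and 62.6 FPKM in HBSS, 61.6, 61.9 and 65.1 at 20 µM, 64.0, 67.1 and 66.9 at 100 µM and 45.2, 41.7 and 61.3 in cell media. Its libraries at 100 µM were all above HBSS by a narrow margin, and its difference of 0.08 (SE 0.12) was the smallest of the complex. Sdhb, the iron-sulfur subunit, was at 46.8, 48.6 and 45.8 FPKM in HBSS, 45.0, 48.5 and 48.1 at 20 µM, 53.2, 53.9 and 52.4 at 100 µM and 67.6, 108 and 48.5 in cell media. These 100 µM values lay close together and clear of HBSS, with a difference of 0.17 (SE 0.21 on 12 libraries and 0.042 on 10). Sdhd, one of the membrane anchors that bind ubiquinone, was at 132, 155 and 143 FPKM in HBSS, 129, 144 and 150 at 20 µM, 156, 173 and 168 at 100 µM and 141, 205 and 125 in cell media. HBSS replicate 2 came close to the lowest 100 µM library, and the difference of 0.21 (SE 0.16) was the largest of the complex. Sdhc, the other anchor, averaged 51.9 ± 1.41 FPKM in HBSS and 57.2 ± 1.03 FPKM at 100 µM (SD, n = 3). Summed over the 4 genes, the level was 305 ± 15.2 FPKM in HBSS and 342 ± 11.1 at 100 µM (SD, n = 3).

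For complex III the median difference was 0.16, and 6 of 9 genes had groups that did not overlap. Uqcrc1, a core protein on the matrix side, was at 57.6, 58.7 and 59.5 FPKM in HBSS, 56.7, 58.6 and 63.7 at 20 µM, 61.3, 64.9 and 70.0 at 100 µM and 90.4, 88.1 and 58.7 in cell media. The HBSS values lay close together and the 100 µM values were all higher, with a difference of 0.15 (SE 0.14). Uqcrfs1, the Rieske iron-sulfur protein, was at 71.0, 74.3 and 74.2 FPKM in HBSS, 71.6, 74.2 and 78.6 at 20 µM, 78.8, 86.5 and 84.2 at 100 µM and 109, 117 and 69.1 in cell media. Every 100 µM library was above every HBSS library, and the difference was 0.18 (SE 0.16). Cyc1, the heme-bearing cytochrome c1, was at 84.4, 99.8 and 94.1 FPKM in HBSS, 88.2, 93.2 and 101 at 20 µM, 101, 103 and 106 at 100 µM and 164, 173 and 87.6 in cell media. HBSS replicate 2 nearly reached the 100 µM values, and the difference was 0.16 (SE 0.21).

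Uqcrh, the acidic hinge protein that helps cytochrome c dock, and Uqcrb, a small ubiquinone-binding subunit, marked the ends of the range over all 38 genes. Uqcrh was at 48.7, 61.2 and 59.6 FPKM in HBSS, 47.5, 49.7 and 60.9 at 20 µM, 67.1, 82.1 and 76.0 at 100 µM and 68.1, 81.7 and 39.4 in cell media. Its 100 µM libraries were all above HBSS, with a difference of 0.41 (SE 0.22; limma, adjusted p = 0.662). Replicate 1 was the lowest library of both groups. Uqcrb was at 84.5, 88.9 and 83.0 FPKM in HBSS, 71.8, 80.4 and 80.9 at 20 µM, 75.9, 95 and 91.7 at 100 µM and 89.4, 86.6 and 75.2 in cell media. These groups overlapped, since replicate 1 at 100 µM was below every HBSS library, and the difference of 0.03 (SE 0.10) turned to −0.034 without 100 µM replicate 2 and to −0.0081 without replicate 3. With quantile normalization it was −0.059 and with the length trend removed −0.097. Of the other 4 genes, the small subunits Uqcr10 (0.28), Uqcr11 (0.30) and Uqcrq (0.11) and the core protein Uqcrc2 (0.15), groups overlapped for Uqcr11 and Uqcrq. The 9 genes summed to 722 ± 34.7 FPKM in HBSS and 830 ± 49.8 at 100 µM (SD, n = 3).

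Cycs encodes somatic cytochrome c, the mobile carrier between complexes III and IV, which also triggers caspase activation when it leaves mitochondria. It was at 83.9, 91.8 and 90.6 FPKM in HBSS, 82.2, 88.4 and 89.5 at 20 µM, 94.6, 106 and 102 at 100 µM and 101, 101 and 75.4 in cell media. The groups did not overlap, and the difference was 0.18 (SE 0.11; limma, adjusted p = 0.669). Cyct, the testis form, was listed at no more than 0.307 FPKM in these groups.

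For complex IV the median difference was 0.19, and 8 of 10 genes had groups that did not overlap. Cox4i1, the ubiquitous form of the largest nuclear subunit, was at 238, 261 and 245 FPKM in HBSS, 239, 248 and 256 at 20 µM, 263, 288 and 296 at 100 µM and 502, 533 and 247 in cell media. HBSS replicate 2 lay just below the lowest 100 µM library, and the difference was 0.18 (SE 0.23). Cox5a, which joins Cox4i1 early in assembly, was at 39.8, 42.1 and 42.9 FPKM in HBSS, 39.7, 40.9 and 43.3 at 20 µM, 42.9, 48.5 and 51.3 at 100 µM and 74.8, 72.2 and 42.5 in cell media. Replicate 3 in HBSS and replicate 1 at 100 µM were nearly equal, and the difference was 0.19 (SE 0.18). The ratio of Cox4i1 to Cox5a was 5.97 ± 0.24 in HBSS and 5.94 ± 0.19 at 100 µM (SD, n = 3), which differed by less than the spread between replicates.

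Cox7b, a small membrane subunit, was at 114, 125 and 116 FPKM in HBSS, 109, 117 and 122 at 20 µM, 127, 142 and 138 at 100 µM and 142, 132 and 114 in cell media. Its groups stood apart, and with a difference of 0.19 and an SE of 0.10 it had the smallest adjusted p of the 38 genes on 12 libraries (limma, 0.651). Cox8a, the small subunit with the highest level, was at 301, 325 and 289 FPKM in HBSS, 292, 306 and 321 at 20 µM, 333, 352 and 386 at 100 µM and 850, 794 and 326 in cell media. No library overlapped, and its difference of 0.23 (SE 0.28) was the largest of the complex. Cox7c was at 87.5, 90.2 and 85.4 FPKM in HBSS, 83.8, 87.2 and 85.7 at 20 µM, 91.3, 94.5 and 93.7 at 100 µM and 184, 184 and 81.9 in cell media. This was the smallest difference of the complex, 0.09 (SE 0.24), and it turned to −0.018 with quantile normalization and to −0.022 with the length trend removed. The other 5 genes, Cox5b, Cox6a1, Cox6b1, Cox6c and Cox7a2, had differences of 0.19, 0.10, 0.22, 0.16 and 0.20, and groups overlapped for Cox5b and Cox6a1. The 10 genes summed to 1504 ± 70.4 FPKM in HBSS and 1714 ± 104 at 100 µM (SD, n = 3).

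For complex V the median difference was 0.19, and 8 of 14 genes had groups that did not overlap. Among the subunits of the catalytic head, Atp5a1 (alpha) was at 198, 229 and 229 FPKM in HBSS, 202, 221 and 239 at 20 µM, 235, 262 and 260 at 100 µM and 187, 273 and 189 in cell media. Atp5b (beta), which carries the catalytic sites, was at 298, 309 and 295 FPKM in HBSS, 294, 307 and 311 at 20 µM, 320, 326 and 327 at 100 µM and 383, 463 and 299 in cell media. For both genes the 100 µM libraries were all above HBSS, with differences of 0.21 (SE 0.14) for Atp5a1 and 0.11 (SE 0.13) for Atp5b. Atp5e (epsilon), the smallest subunit of the central stalk, was at 70.6, 72.1 and 67.1 FPKM in HBSS, 63.8, 65.9 and 74.8 at 20 µM, 75.3, 86.0 and 89.8 at 100 µM and 208, 180 and 67.7 in cell media. Its groups did not overlap either, and the difference was 0.25 (SE 0.32).

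The 3 genes Atp5g1, Atp5g2 and Atp5g3 encode the same mature c subunit of the membrane rotor behind different import sequences. Atp5g1 was at 13.3, 14.4 and 11.7 FPKM in HBSS, 13.2, 14.3 and 15.3 at 20 µM, 13.3, 16.7 and 16.5 at 100 µM and 28.9, 29.7 and 12.9 in cell media. Atp5g2 was at 74.3, 75.7 and 72.9 FPKM in HBSS, 71.2, 73.5 and 70.8 at 20 µM, 77.1, 80.6 and 74.5 at 100 µM and 221, 180 and 77.3 in cell media. Atp5g3 was at 108, 122 and 119 FPKM in HBSS, 108, 112 and 130 at 20 µM, 124, 147 and 142 at 100 µM and 181, 202 and 101 in cell media. Groups overlapped for Atp5g1 and Atp5g2 and not for Atp5g3. The differences were 0.22 (SE 0.25), 0.06 (SE 0.29) and 0.24 (SE 0.21), and that of Atp5g2, the smallest of complex V, turned to −0.017 with quantile normalization and to −0.021 with the length trend removed. Atp5g3 gave 57.1 ± 1.7% of the FPKM of the 3 genes in HBSS and 59.7 ± 1.6% at 100 µM, while Atp5g2 gave 36.4 ± 1.3% and 33.6 ± 2.1% (SD, n = 3). Atp5g1 gave 6.43 ± 0.61% and 6.71 ± 0.45%. By principal mRNA length the HBSS shares were 14.5% for Atp5g1, 37.8% for Atp5g2 and 47.7% for Atp5g3, so the order was kept but the gaps were smaller.

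Atp5j2, the f subunit of the membrane part, had the largest difference of complex V. It was at 24.4, 29.1 and 27.8 FPKM in HBSS, 24.4, 26.4 and 28.6 at 20 µM, 29.7, 35.8 and 33.8 at 100 µM and 42.8, 54.5 and 23.3 in cell media. The groups did not overlap, with HBSS replicate 2 next to 100 µM replicate 1, and the difference was 0.28 (SE 0.23). The other 7 genes, Atp5c1, Atp5d, Atp5h, Atp5j, Atp5k, Atp5l and Atp5o, had differences between 0.11 for Atp5k and 0.22 for Atp5o. Groups overlapped for Atp5d, Atp5k, Atp5l and Atp5o. Reads of a pseudogene, Atp5k-ps2, listed at up to 7.25 FPKM, cannot be told with certainty from those of Atp5k. The 14 genes summed to 1249 ± 50.4 FPKM in HBSS and 1405 ± 75.4 at 100 µM (SD, n = 3).

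**Figure D3:**
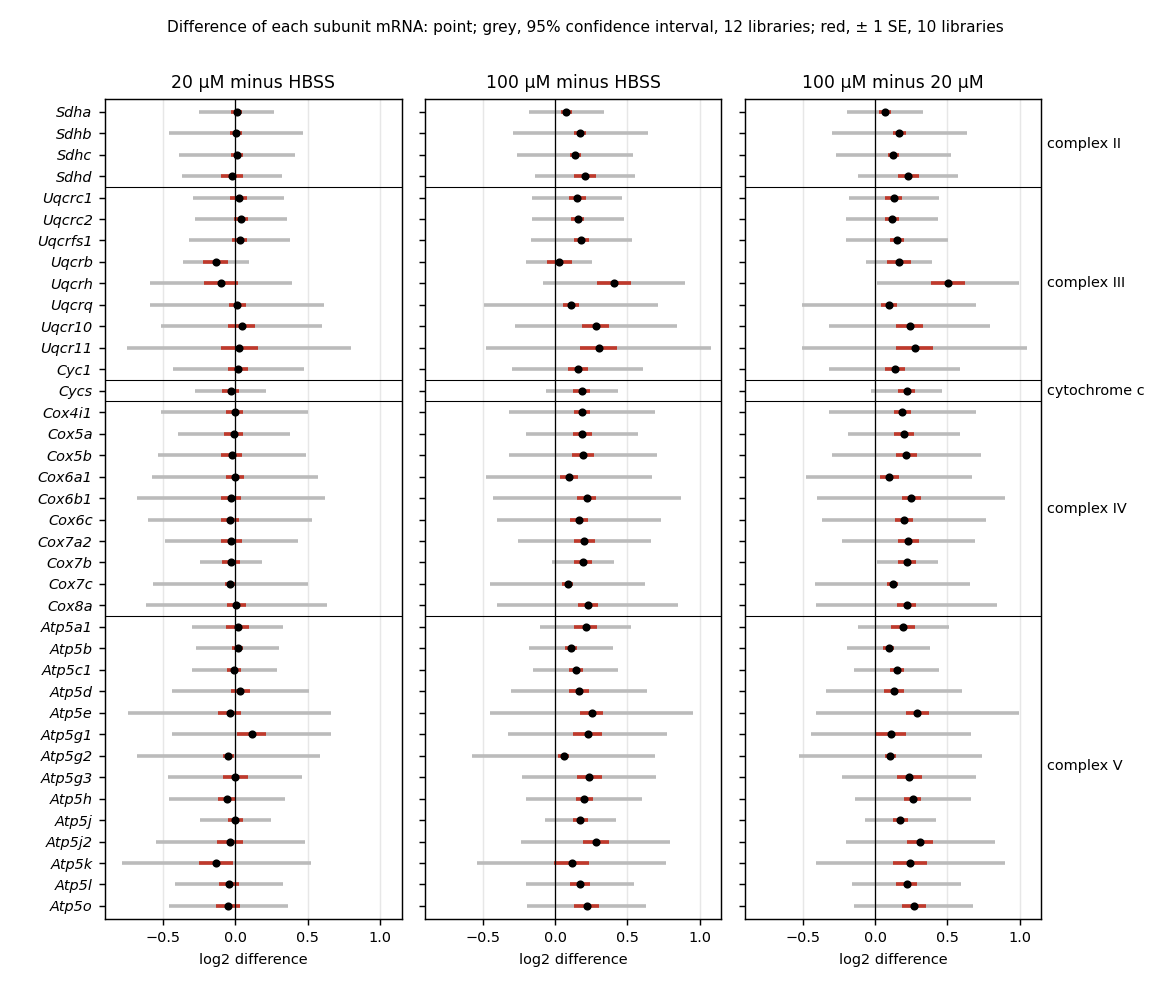
Log2 difference of each gene (point) in 3 comparisons, with its 95% confidence interval from 12 libraries in grey and 1 SE either side from 10 libraries in red. In both panels of 100 µM every point is above 0, and every grey interval crosses 0 except those of Cox7b and Uqcrh in 100 µM minus 20 µM. In the panel of 20 µM minus HBSS the points lie around 0, from −0.14 to 0.11.

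At 20 µM the subunit mRNAs stood next to their HBSS levels. Of the 38 genes 15 had a higher mean, against 53.9% of all genes, and 23 a lower one, with a median log2 difference of −0.0056 against 0.0057 over all genes kept. The range was −0.14 for Uqcrb to 0.11 for Atp5g1. The sign of the median turned when 1 library was left out: it was 0.024 with HBSS replicate 2 removed and 0.021 with replicate 1 of the 20 µM group removed. Limma called 0 of 38 on 12 libraries and 0 of 38 on 10, and 0% of all genes on either. An unadjusted p under 0.05 was found for 0 of 38 on 12 libraries, against 1.08% of all genes, and for 0 on 10, against 3.08%. All 3 libraries were above HBSS for 0 of 38 genes (4.21% of all genes) and below for 1 (3.48%), which was Uqcrb.

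For every other named gene the 20 µM values given above overlapped those of HBSS. Replicate 1 held the lowest 20 µM value of many genes, among them Sdha, Sdhb, Sdhd, Uqcrh, Cyc1, Cycs, Cox4i1, Cox8a, Atp5b and Atp5e. Over all 38 genes the median deviation from the HBSS mean was −0.07, −0.0037 and 0.06 in the 3 libraries, against −0.04 to 0.06 within HBSS. The summed levels were 304 ± 15.4 FPKM for complex II, 724 ± 53.6 for III, 1489 ± 63.3 for IV and 1242 ± 60.6 for V (SD, n = 3), each within the spread of HBSS.

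The comparison of 100 µM with 20 µM HOCl has the 100 µM libraries in common with the comparison of 100 µM with HBSS, so they are not independent. All 38 genes had a higher mean at 100 µM, against 46.2% of all genes, with a median log2 difference of 0.20 against −0.017 over all genes kept. The range was 0.07 for Sdha to 0.51 for Uqcrh. Limma called 0 of 38 on 12 libraries (0% of all genes, smallest adjusted p = 0.825) and 0 of 38 on 10 (0% of all genes, smallest adjusted p = 0.124). An unadjusted p under 0.05 was given to 2 of 38 on 12 libraries, Cox7b and Uqcrh, against 4% of all genes, and to 28 on 10 libraries, against 26.2%. On 10 libraries that count was 18 with quantile normalization, against 22.6%, and 25 with the length trend removed, against 20.8%. All 3 libraries at 100 µM were above all 3 at 20 µM for 25 of 38 genes (12.7% of all genes) and below for 0 (15.6%). With library weights 29 of 38 were called, against 38.9% of all genes. Calls on 10 libraries again changed with a replicate block, as given in the last section. With quantile normalization 37 of 38 were higher, all but Cox6a1, with a median of 0.11.

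**Figure D4:**
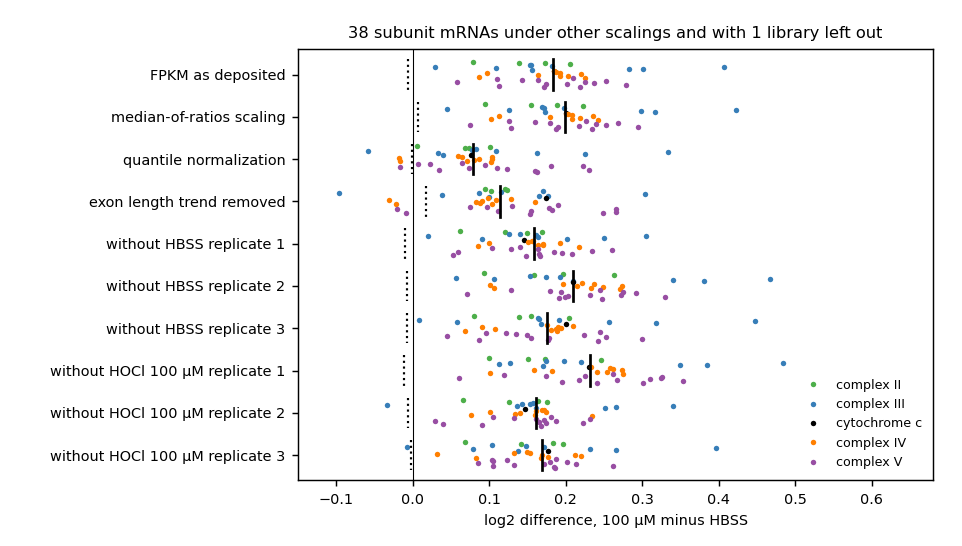
Log2 difference between 100 µM and HBSS of each of the 38 genes (points, coloured by complex) under other scalings and with each HBSS or 100 µM library left out in turn. Solid bars mark the median of the 38 and dotted bars that of all genes kept. The solid bar lies between 0.078 under quantile normalization and 0.23 without HOCl 100 µM replicate 1, to the right of the dotted bar in every row.

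In the comparison of HBSS with cell media, the difference rested on which cell media libraries were used. With all 3, the mean in HBSS was lower for 34 of 38 genes and higher for 4, Sdha, Uqcrc2, Uqcrb and Atp5a1, against 61.2% higher over all genes. The median log2 difference was −0.51 against 0.10 over all genes kept, and the range was −1.02 for Uqcrq to 0.35 for Sdha. Limma called 0 of 38 on 12 libraries (0.0166% of all genes, smallest adjusted p = 0.0711), and 27 of 38 had an unadjusted p under 0.05, against 40.0% of all genes. Without cell media replicates 1 and 2, which leaves replicate 3 alone and assumes that it varies like the other groups, 28 of 38 were higher in HBSS and the median was 0.060. There limma again called 0 of 38, and 0% of all genes, and 3 of 38 had an unadjusted p under 0.05, against 6.84%. Limma called 32 of 38 with library weights, against 57.3% of all genes, and 35 without cell media replicate 3, against 65.3%. Groups did not overlap for 4 genes that were lower in HBSS (8.91% of all genes), Cox6a1, Uqcrq, Atp5g2 and Cox8a, and for 1 that was higher (12.7%), Uqcrc2.

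Cell media replicates 1 and 2 held most subunit mRNAs at levels seen in no other library. For 30 of the 38 genes both stood above all other 10 libraries, against 19.2% of genes kept. For 2 genes, Sdha and Uqcrc2, both stood below, against 37.2%. The mean of the 2 libraries over that of the other 10 ran from 0.68 for Sdha to 2.68 for Atp5g2, with a median of 1.72. Cox8a, Cox4i1, Cyc1, Atp5e and Atp5g2 were among those above all others, by values given for each gene earlier. Cycs, Cox7b, Atp5a1, Sdhd, Uqcrb and Uqcrh, 6 genes in all, did neither, and Atp5a1 was high in replicate 2 alone.

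Within complex II the 4 mRNAs thus did not keep their ratios in these 2 libraries. Sdha was low in both, Sdhb and Sdhc were high in both, and Sdhd was high in replicate 2 alone. Sdha stood at 0.68 times its mean in the other libraries, Sdhb at 1.79, Sdhc at 1.73 and Sdhd at 1.17 times. Genes with a shorter principal mRNA had larger ratios (Spearman's rho −0.64 across the 38 genes, given as a description of these libraries). With union exon length in place of the principal mRNA the rho was −0.35 across the 38 genes and −0.39 over all genes kept. The part of length in these ratios was not tested. Across the 38 genes the differences between 100 µM and HBSS had a rho of −0.13 with principal mRNA length. With the ratio of cell media 1 and 2 their rho was 0.079. The −0.41 given earlier over all genes kept was with union exon length, so it cannot be set beside the −0.13. Within groups, the median coefficient of variation over the 38 genes was 33.1% in cell media, 4.76% in HBSS, 4.72% at 20 µM and 6.82% at 100 µM.

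Other genes of the pathway were read from fixed lists, and in the comparison of 100 µM with HBSS limma called 0 genes of any list on 12 libraries. Among all genes kept, 0% were called, 48.5% had a higher mean at 100 µM and 16.5% had all 3 libraries above HBSS. Of 35 measured nuclear subunits of complex I, the entry point for electrons from NADH, 34 had a higher mean at 100 µM, with a median of 0.18 and with groups that did not overlap for 17. Quantile normalization left 31 higher with a median of 0.12. The 3 with the smallest p were Ndufa9 (0.18), Ndufa5 (0.28) and Ndufv2 (0.19). Of 7 subunits and partners of complexes III to V outside the 38, 6 were higher with a median of 0.13, and 4 with a median of 0.022 under quantile normalization. They included Atp5f1, the b subunit of the ATP synthase stator, at 90.2 ± 3.26 and 99.2 ± 4.75 FPKM, and Ndufa4, a subunit of complex IV, at 109 ± 7.29 and 124 ± 8.14 (SD, n = 3). Atp5s, a coupling factor, was at 4.11 ± 0.69 and 3.42 ± 0.43.

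Assembly factors were counted by complex. Complex II factors were higher for 4 of 4 with a median of 0.10, led by Sdhaf4, which helps mature Sdha, at 17.0, 16.3 and 13.7 FPKM in HBSS and 18.6, 22.6 and 18.4 at 100 µM. The Sdhaf4 groups did not overlap (0.32, SE 0.14; limma, adjusted p = 0.636). Complex III factors were higher for 4 of 6 with a median of 0.09, and Ttc19, which keeps the Rieske protein's fragments from accumulating, was lower at 4.07 ± 0.23 and 3.29 ± 0.42 FPKM (SD, n = 3). Complex IV factors were higher for 14 of 17 kept, with a median of 0.096. Among them Cox15, which makes heme A, was lower at 100 µM in all libraries, at 13.3, 13.1 and 12.7 FPKM in HBSS and 11.8, 11.2 and 11.9 at 100 µM. The 3 complex V factors had a median of 0.014, which turned to −0.019 with the length trend removed. These medians were below the 0.18 of the 38 subunit genes, but not under every scaling. With quantile normalization the factors of complexes II, III and IV had medians of 0.14, 0.11 and 0.11, above the 0.078 of the 38 genes, and with the length trend removed those of complex II (0.12) were above the 0.11 of the 38.

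Most known regulators of these genes had lower means at 100 µM. Of 11 measured regulators 3 were higher, against 48.5% of all genes, and 8 were lower, with a median of −0.095. On 10 libraries 3 of 11 had an unadjusted p under 0.05, against 32.2% of all genes, and for 3 of 11 all 3 libraries at 100 µM lay below HBSS, against 17.6%. The count of 8 of 11 lower also held under each of the other 3 scalings, with the median nearest 0 at −0.042. With the length trend removed it was not made up of the same genes, since Nrf1 was then higher. Gabpa, the DNA-binding subunit of GABP, was at 13.8, 13.4 and 13.3 FPKM in HBSS and at 11.9, 11.3 and 11.5 at 100 µM. Its groups did not overlap, and the difference was −0.21 (SE 0.16; limma, adjusted p = 0.688 on 12 libraries and 0.0580 on 10). Yy1, a zinc finger factor, was at 21.5 ± 1.14 and 19.4 ± 0.67 FPKM, and Gabpb1, the partner of Gabpa, at 8.12 ± 0.24 and 7.42 ± 0.45 (SD, n = 3), both without overlap. Nrf1 was at 4.81 ± 0.17 and 4.61 ± 0.13, with a sign that turned when the length trend was removed (−0.05 and 0.09), and Tfam, which packages and transcribes mitochondrial DNA, at 10.0 ± 0.44 and 10.4 ± 0.19. Ppargc1a, the inducible coactivator PGC-1α, was listed at no more than 0.0155 FPKM in any library, while its relatives Ppargc1b and Pprc1 were at 3.26 ± 0.25 and 10.0 ± 0.70 FPKM in HBSS.

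Mitochondrially encoded partners were split in direction. Of the 6 measured for complexes III to V, 3 had a higher and 3 a lower mean at 100 µM than in HBSS, with a median of 0.10 that turned to −0.017 with the length trend removed. The levels of mt-Co1, the catalytic core of complex IV, were 8674, 7019 and 7660 FPKM in HBSS and 6373, 6469 and 7152 at 100 µM. Those of mt-Co3 were 67.1, 64.4 and 56.5 FPKM in HBSS and 114, 111 and 174 at 100 µM, without overlap (1.04, SE 0.32; limma, adjusted p = 0.602). For mt-Co2 they were 273, 336 and 231 FPKM and 400, 300 and 462, which overlapped. The mt-Co1 and mt-Co3 mRNAs are cut from shared precursor transcripts, yet mt-Co3 stood far below mt-Co1 in every library, and the reason was not tested. The sum of the 10 nuclear complex IV genes over the sum of mt-Co1 to mt-Co3 was 0.16, 0.21 and 0.18 in HBSS, 0.20, 0.20 and 0.21 at 20 µM and 0.23, 0.26 and 0.23 at 100 µM. All 3 libraries at 100 µM were above all 3 in HBSS and all 3 at 20 µM, and mt-Co1 makes up most of the lower sum. In cell media the ratio was 0.51, 0.45 and 0.17.

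Isoforms known from other tissues were scarce. Of 8 listed, 2 passed the filter: Cox7a1, the heart and muscle partner of Cox7a2, at 5.90 ± 1.14 FPKM in HBSS, and Cox6a2, that of Cox6a1, at 2.52 ± 1.23 (SD, n = 3). Cox4i2, the lung form of Cox4i1, was at 0.646 ± 0.0971 FPKM in HBSS and Cox8b was listed at 0 in all 3 HBSS libraries. The ubiquitous forms Cox7a2, Cox6a1 and Cox4i1 stood at 108, 167 and 248 FPKM.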

How the data were processed

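The authors deposited 1 table of FPKM values for 28977 gene IDs in 12 libraries of J774A.1 cells. HISAT2, featureCounts and the build GRCm39 are named, per the submitters' processing notes. Versions, settings and strand are not given in the sources used here. Among the labels are 2 sequencing instruments, without a statement of which library ran on which. GENCODE M21, which is of the GRCm38 build, gave symbols and exon lengths for 28302 IDs and no coordinates, and RefSeq gave promoters (GRCm38.p6). No counts were given, but 98.1% to 98.4% of the values below 1 FPKM in each library, multiplied by exon length, lay within 0.01 of whole reads, which gave the depths. Genes that reached 1 FPKM in 3 or more libraries were kept (12026). limma 3.58.1 in R 4.3.3 was run on log2(FPKM + 1), with 1 mean per group, all 12 libraries in 1 model and a mean-variance trend, two-sided, with Benjamini-Hochberg adjustment over the 12026 genes and calls at an adjusted p under 0.05. The step was tested on simulated data, with genes drawn independently and a spread taken from HBSS and the HOCl groups alone. That setting leaves out the spread of cell media and genes that move together, so it does not cover the fit on 12 libraries. With 3 libraries against 3 an exact permutation test of a single value could not reach 0.05, so none was run.

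The members and lists were chosen with earlier results of these data known. Values in every library were given for 15 members fixed by role and for those with the largest and smallest difference between 100 µM and HBSS in each complex. From other lists, the 3 genes with the smallest p, those with the highest or lowest level and all regulators could be named. The alternatives tried were quantile normalization, median-of-ratios scaling, pseudocounts of 0.5 and 0.1, a filter at a mean of 5 FPKM and none at all, removal of each library's trend on exon length, a model of 2 groups, a replicate block, no mean-variance trend, library weights, 10 libraries with or without the block, and leaving out each library. Quantile normalization and the length correction on 10 libraries were added after the data were seen. Tables were made in Python 3.11.15 with pandas 2.3.3.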

Additional observations from a re-analysis of the deposited data

How the results depend on the processing

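Among the comparisons of HOCl, the 38 genes had 0 calls by limma under every alternative except 2. With library weights 18 were called between 100 µM and HBSS (25.5% of all genes) and 29 between 100 µM and 20 µM (38.9%). On 10 libraries with a replicate block 25 were called in each (24.8% and 17.4%), while the replicate block on 12 libraries called 0 members in any comparison. The labels do not say whether samples with the same number were paired, and the correlations do not settle it. Over all 12 libraries, deviations of libraries with the same number correlated at −0.42 to 0.41, those with different numbers at −0.49 to 0.50. Among HBSS, 20 µM and 100 µM alone the ranges were −0.062 to 0.41 and −0.41 to 0.28, 5 of 9 pairs with the same number were above 0.1, and not every library correlated best with its own number. Over all genes, the replicate block on 12 libraries called 0% in each comparison of HOCl and 1.6% between HBSS and cell media. Between HBSS and cell media, library weights called 32 (57.3% of all genes), and leaving out each library gave 0 to 35, with 35 without cell media replicate 3 (65.3%).

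The median difference between 100 µM and HBSS was 0.078 with quantile normalization, on 12 and on 10 libraries, and 0.16 to 0.23 with 1 library left out. Between HBSS and cell media the median on 10 libraries was 0.060, and there 0.092 with a replicate block, 0.033 with quantile normalization and 0.059 with the length trend removed. On 12 libraries the same settings gave −0.51, −0.33 and −0.47, and leaving out 1 library −0.82 to −0.33. The genes that changed sign between 100 µM and HBSS were Uqcrb (−0.059 with quantile normalization, −0.097 with the length trend removed, and −0.034 to 0.13 with 1 library left out, the lowest without 100 µM replicate 2, with −0.0081 without replicate 3), Cox7c (−0.018 and −0.022), Atp5g2 (−0.017 and −0.021), Cox6a1 (−0.018 and −0.032) and, with the length trend removed alone, Atp5k (−0.0086), with the same values on 10 libraries. The causes were not tested. Every value of these genes rested on at least 440 reads.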
